A study of Mus musculus with 4 samples.

Results

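The 10 genes described here encode the machinery that loads peptides on MHC class II molecules in B cells: H2-Aa, H2-Ab1 and H2-Eb1 (class II chains), Cd74 (the invariant chain), H2-DMa, H2-DMb1 and H2-DMb2 (the peptide editor DM), H2-Oa and H2-Ob (its inhibitor DO) and Ciita (the class II transactivator). They were chosen by name, and all 10 were found among the 32285 genes of both mRNA count matrices. Single-cell RNA sequencing on a 10x platform was performed on splenic B cells of 6 recipient mice, 3 per group, on day 8 after transfer of MD4 B cells and immunisation with SRBC-HEL, sheep red blood cells coupled to hen egg lysozyme (HEL). MD4 B cells carry a transgenic receptor for HEL. Cells gated as HEL+ CD95+ germinal centre (GC) B cells were labelled with 1 hashtag antibody per mouse, pooled, and sorted into CD45.1+ and CD45.2+ cells, each of which gave 1 mRNA and 1 hashtag library.

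The recipients were CD45.1+ WT mice, and experimental mice were 8 to 12 weeks old and of both sexes. In all 6 mice the CD45.1+ MD4 cells were Dock8 wt/wt and carried no BCL2 transgene. The CD45.2+ MD4 cells carried BCL2.Tg, a transgene active in B cells, and were Dock8 wt/wt in the 3 wt mice and Dock8 cpm/cpm in the 3 cpm mice. The cpm allele is an ENU-induced point mutation of Dock8, a guanine nucleotide exchange factor for CDC42. Since CD45 allele, transgene and library changed together, they cannot be told apart in any comparison of the sorts. The donors of the CD45.2+ Dock8 wt/wt cells were male and those of the CD45.2+ Dock8 cpm/cpm cells female, so that genotype and donor sex cannot be told apart either. Donor animals behind each mixture are not given in the sources used here, and the spread over recipients measures the variation between these 6 mice.

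MHC class II molecules are heterodimers of an alpha and a beta chain that present peptides from endosomes to CD4+ T cells. The invariant chain occupies the groove on the way to the endosome, DM exchanges its remnant for antigenic peptides, and DO, a B cell-enriched relative, holds DM in check. CIITA does not bind DNA itself but is recruited to a conserved promoter module bound by RFX, CREB and NF-Y factors, and it sets the level of the whole set. Light zone (LZ) GC B cells present captured antigen to follicular helper T cells, dark zone (DZ) cells divide and mutate, and B cells that become plasma cells are known to extinguish Ciita through Blimp-1, encoded by Prdm1. C57BL/6 mice, the background of the MD4 donors, lack a functional H2-Ea gene, so that H2-Eb1 is transcribed without giving I-E on the surface.

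On GRCm38 with GENCODE M21, 8 of the 10 genes lie within 1 stretch of chromosome 17, from H2-Oa (chr17:34092340-34095234) through H2-DMa (chr17:34119541-34139101), H2-DMb2 (chr17:34143307-34151555), H2-DMb1 (chr17:34153072-34160230), H2-Ob (chr17:34238903-34254414), H2-Ab1 (chr17:34257689-34269419) and H2-Aa (chr17:34282744-34287823, minus strand) to H2-Eb1 (chr17:34305867-34316674). Ciita lies apart at chr16:10480059-10528418, and Cd74 on another autosome. The promoters of the chromosome 17 genes are shown because the conserved module that recruits CIITA is what these genes share in sequence. Sequences were taken from RefSeq on GRCm38.p6, from 250 bases before to 50 bases after each start, and 7 of the 10 genes had an entry. Each line gives 65 bases of the coding strand, with the AAC of the X box core and the Y box GATTGG in capitals.

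H2-Aa: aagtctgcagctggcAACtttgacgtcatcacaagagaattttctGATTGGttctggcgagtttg
H2-Eb1: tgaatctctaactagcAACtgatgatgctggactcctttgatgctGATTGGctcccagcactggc
H2-DMb1: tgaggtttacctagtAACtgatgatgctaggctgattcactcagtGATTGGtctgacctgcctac
H2-DMb2: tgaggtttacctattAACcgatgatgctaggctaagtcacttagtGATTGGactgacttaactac
H2-Oa: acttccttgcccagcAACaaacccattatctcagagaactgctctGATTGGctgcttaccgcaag
H2-Ob: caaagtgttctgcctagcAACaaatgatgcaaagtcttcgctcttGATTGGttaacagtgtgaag

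These windows lie at chr17:34287853-34287917 (H2-Aa, minus strand), chr17:34305762-34305826 (H2-Eb1), chr17:34153084-34153148 (H2-DMb1), chr17:34145113-34145177 (H2-DMb2), chr17:34092290-34092354 (H2-Oa) and chr17:34238802-34238866 (H2-Ob). GENCODE M21 models of H2-Oa, H2-DMb1 and H2-DMb2 begin before their RefSeq starts, so that the windows of these 3 genes overlap their longest models. GATTGG began 49 bases before the start of H2-Aa, 60 before H2-Eb1, 62 before H2-DMb1, 91 before H2-DMb2, 44 before H2-Oa and 58 before H2-Ob. The bases between AAC and GATTGG numbered 27 in H2-Aa, H2-DMb1, H2-DMb2 and H2-Oa, 26 in H2-Eb1 and 24 in H2-Ob. H2-DMa had GATTGG 199 bases before 1 of its starts without an AAC at this spacing. Over all 32851 promoters in the table and both strands, GATTGG occurred in 5292 (16.1%), and AAC followed by GATTGG after 20 to 34 bases in 906 (2.76%). H2-DMb1 and H2-DMb2 are neighbouring copies, and their transcripts of 1404 and 1483 bases were identical at 69.1% of aligned positions and at 58.9% over the last 400 bases, with a longest shared run of 221 bases. Reads lying wholly in that run cannot be assigned to 1 of the genes by sequence, so that the separate levels of H2-DMb1 and H2-DMb2 are uncertain to that extent.

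The CD45.2 library held 24241 barcodes and the CD45.1 library 5232, of which 6569 and 3294 were hashtag singlets, and 8048 and 1562 were removed as hashtag doublets. After the cell filters 6488 CD45.2+ and 3204 CD45.1+ cells were kept, with 1672 to 2607 CD45.2+ cells in each wt mouse, 57, 44 and 101 in the cpm mice, and 339 to 947 CD45.1+ cells per mouse. The study states more CD45.2+ cells than these rules left, and all genotype tests rest on the few cells of the cpm mice. A rule asking only that the highest hashtag hold 3 times the next kept 229, 160 and 481 CD45.2+ cells in the cpm mice. The summed UMIs of a mouse ran from 342465 to 18036775. The libraries shared 38 barcodes, 6 of them among kept cells. Clusters were built without the 10 genes and were named by the study's marker lists, so that each name stands for cells like those of that list. A joint cluster of LZ2, LZ3 and LZ4 is called LZ2 to LZ4. Over the LZ and DZ clusters, 8 B cell identity genes summed to 5252 to 6913 CPM in CD45.2+ and 6147 to 7244 CPM in CD45.1+ cells, and 10 T cell markers to 21.6 to 55.5 CPM and 61.2 to 84.5 CPM. A cluster of 107 T cells, 63 in the CD45.2 and 44 in the CD45.1 library, was kept as a measure of class II RNA in cells that should lack it. Dock8 stood at 83.5 to 99.1 CPM in the CD45.2+ cells of wt mice and 95.7 to 105 CPM in those of cpm mice, and for a point mutation the RNA level checks nothing.

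Across B cell states the class II genes stood high in LZ, early GC and memory-like cells, lower in DZ cells and lowest in plasma cells. Levels are given as CPM, UMI counts of a gene per 1000000 UMIs of all genes summed over the cells of 1 mouse in 1 state, for wt mice (n = 3) with SD. States were defined from the same cells, so these levels are a description without a test. In DZ cells (DZ1, DZ2 and DZ3/DZ4) all 10 genes lay below LZ2 to LZ4 in every wt mouse, with no overlap, in both sorts. Among all genes with a mean of at least 50 CPM, 29% did so in CD45.2+ and 21.9% in CD45.1+ cells. The median log2 ratio of DZ to LZ2 to LZ4 was -0.93 over the 10 genes and 0.061 over all genes in CD45.2+ cells, and -0.87 and 0.069 in CD45.1+ cells. The summed 10 genes stood at 55.6% ± 6.05 (SD, n = 3) of their LZ2 to LZ4 level in CD45.2+ and 58.1% ± 8.49 in CD45.1+ DZ cells. DZ cells held more RNA, with a median of 10734 UMIs against 5009.5 in LZ2 to LZ4 cells of the CD45.2 library and 7032 against 3502.5 in the CD45.1 library. Counted as UMIs per cell, the same ratio was 0.067 in CD45.2+ and 0.19 in CD45.1+ cells on the log2 scale. The lower CPM of DZ cells was a lower share of their RNA, while the summed count per cell was not lower. This holds for the sum and not for each gene. In CD45.2+ cells of every wt mouse, H2-Oa and Ciita counts per cell were lower in DZ than in LZ2 to LZ4, while the mean ratio of H2-Ab1 was above zero.

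**Figure D1:**
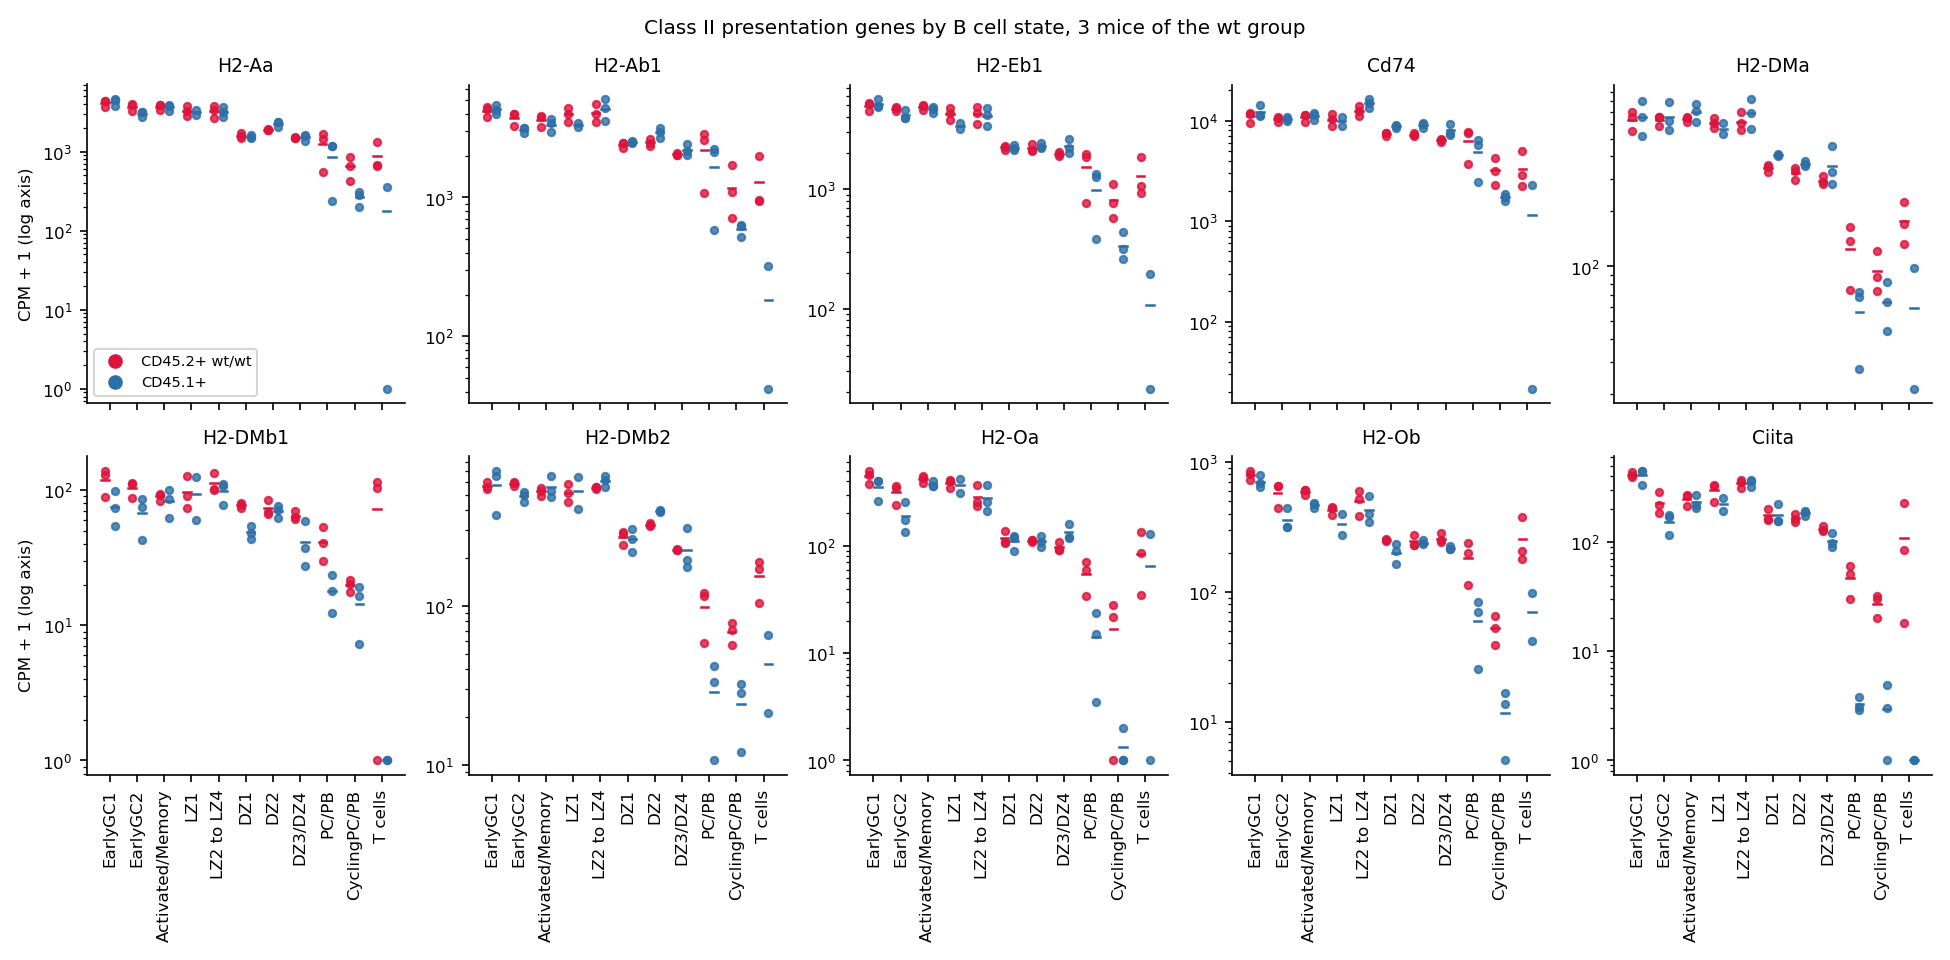
Level of each class II presentation gene (CPM + 1, log axis) in 11 states, for CD45.2+ Dock8 wt/wt and CD45.1+ cells of the 3 wt mice. Points are mice with at least 10 cells in the state and bars their mean. In both sorts the DZ states lie below LZ2 to LZ4, and PC/PB cells reach 13.1% of the LZ2 to LZ4 level for Ciita in CD45.2+ and 0.660% in CD45.1+ cells.

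H2-Aa encodes the alpha chain of I-A. In CD45.2+ cells of the wt mice it stood at 4352, 4313 and 3669 CPM in EarlyGC1, 3353, 3714 and 2665 CPM in LZ2 to LZ4 and 1726, 1552 and 1498 CPM in DZ1. EarlyGC1, Activated/Memory (3704 ± 286), EarlyGC2 (3695 ± 391), LZ1 (3278 ± 468) and LZ2 to LZ4 overlapped as neighbours in this order, and the break without overlap came below LZ2 to LZ4. Below it lay DZ2 (1896 ± 53.2), Activated2 (1799 ± 164), DZ1, DZ3/DZ4 (1505 ± 35.4), PC/PB (1231 ± 595) and CyclingPC/PB (647 ± 215), neighbours again overlapping. The CD45.1+ cells gave 4620.5, 3714 and 4433 CPM in EarlyGC1 against 3158, 3654 and 2698 CPM in LZ2 to LZ4, and here the 2 states did not overlap.

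H2-Ab1, the I-A beta chain, did not show the EarlyGC1 excess of its partner. Its levels were 4363, 4494 and 3816 CPM in EarlyGC1 and 3964, 4719 and 3491 CPM in LZ2 to LZ4 of CD45.2+ cells, which overlapped, as they did in CD45.1+ cells (4311 ± 334 and 4367 ± 777 CPM). From LZtoPrePC/Memory (4413 ± 574) down to DZ3/DZ4 (2048 ± 47.4) each neighbour in the order of CD45.2+ states overlapped the next, and CyclingPC/PB stood apart below at 1172 ± 504 CPM. PC/PB cells held 2613, 2868 and 1069 CPM.

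H2-Eb1 encodes the beta chain of I-E. It stood at 5286, 5166 and 4514 CPM in EarlyGC1, 4322, 4841 and 3465 CPM in LZ2 to LZ4 and 2308, 2263 and 2111 CPM in DZ1 of the CD45.2+ cells. States from EarlyGC1 to Activated2 (3448 ± 344) overlapped as neighbours, DZ1 and DZ2 (2196 ± 154) lay apart below them, and DZ3/DZ4 (1953 ± 78.1) below those. PC/PB cells held 1846, 1979.9 and 767 CPM. The CD45.1+ EarlyGC1 cells at 5657, 4835 and 4949 CPM lay above the CD45.1+ LZ2 to LZ4 cells at 4146, 4711 and 3339.8 CPM without overlap.

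Cd74 chaperones class II chains and is also a surface receptor for MIF. It was highest in LZ2 to LZ4, with 12469.9, 14070.1 and 11006 CPM in CD45.2+ and 14889, 16400.1 and 13237 CPM in CD45.1+ cells of the wt mice. EarlyGC1 stood at 10998 ± 1386 and 12216 ± 1679 CPM, overlapping LZ2 to LZ4 in both sorts. DZ1 stood at 7334 ± 199.7 and 8760.1 ± 254 CPM. In CD45.2+ cells a break without overlap separated Activated2 (9295 ± 555) from DZ1, whereas in CD45.1+ cells the order ran without a break from LZ2 to LZ4 down to DZ3/DZ4 (7990.3 ± 1119.7).

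H2-DMa, the alpha chain of the editor, stood within a narrow range in the 5 states from Activated/Memory to LZ1. It was found at 659, 694 and 552 CPM in EarlyGC1 and 606, 699 and 554 CPM in LZ2 to LZ4 of CD45.2+ cells, and the states from Activated/Memory (643 ± 21.4) to LZ1 (607 ± 37.1) overlapped as neighbours. Activated2 and LZtoPrePC/Memory came next, then DZ1 (345 ± 15.9), DZ2 and DZ3/DZ4, and last PC/PB (124 ± 46.4) and CyclingPC/PB (93.5 ± 25.0), each of these groups apart from the one above. CD45.1+ cells held 694 ± 129 CPM in LZ2 to LZ4, 405 ± 5.83 in DZ1, 62.6 ± 19.2 in CyclingPC/PB and 55.3 ± 25.0 in PC/PB, and the last 2 states overlapped.

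The beta chains of DM come from neighbouring genes. H2-DMb2 stood at 554, 558 and 540.1 CPM in LZ2 to LZ4, 281, 242 and 289.8 in DZ1 and 115, 119 and 57.4 in PC/PB of CD45.2+ cells, with every adjacent pair of states from LZ1 (514 ± 66.4) down to PC/PB apart. H2-DMb1 stood at 101, 133 and 99.6 CPM in LZ2 to LZ4, 77.0, 80.1 and 72.7 in DZ1 and 39.5, 52.8 and 29.0 in PC/PB. Its highest level by far was in the LZtoPrePC/Memory cluster, at 423, 409 and 308 CPM in 59, 107 and 25 cells. H2-DMb1 was among the 10 leading genes of that cluster, although it had been left out of clustering, and is therefore given as a description only. The same cells held 1046 ± 189 CPM of H2-Ob and 503 ± 73.9 CPM of Ciita, both the highest of all states. Over all 214 cells of the cluster the median UMI count was 0.27 times that of their library and the median mitochondrial share 6.02%, and the part of these in the levels was not tested.

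H2-Oa and H2-Ob encode the chains of DO. H2-Oa was highest in EarlyGC1 at 500.4, 452 and 376 CPM and in Activated/Memory at 429.8, 449 and 385 CPM, both above LZ2 to LZ4 at 256, 367 and 233 CPM in CD45.2+ cells. H2-Ob stood at 812, 721 and 855 CPM in EarlyGC1 against 513, 597 and 385 CPM in LZ2 to LZ4, again without overlap. In CD45.1+ cells H2-Ob kept this order, at 634, 786 and 688 against 393, 546 and 344 CPM, whereas H2-Oa overlapped (354 ± 79.4 against 278 ± 82.5). In DZ cells H2-Oa kept the smallest share of its LZ2 to LZ4 level among the 10 genes, 39.8% ± 8.78 in CD45.2+ and 41.7% ± 10.1 in CD45.1+ cells.

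Because DM and DO act against each other, their counts were set in ratio within each mouse and compared between states only. H2-DMa counts per H2-Oa count were 2.21 ± 0.270 (SD, n = 3) in LZ2 to LZ4, 2.96 ± 0.104 in DZ and 1.44 ± 0.113 in EarlyGC1 CD45.2+ cells of wt mice. None of the 3 states overlapped another. CD45.1+ cells gave 2.49 ± 0.411 (n = 6) in LZ2 to LZ4, 3.41 ± 0.377 (n = 6) in DZ and 1.79 ± 0.570 (n = 4) in EarlyGC1, in the same order but with overlapping ranges. Set against H2-Ob, H2-DMa stood at 1.26 ± 0.152 in LZ2 to LZ4, 1.31 ± 0.0716 in DZ and 0.806 ± 0.158 in EarlyGC1 CD45.2+ cells. In CD45.1+ cells the ratio to H2-Ob was 1.55 ± 0.146 in LZ2 to LZ4, 1.72 ± 0.0967 in DZ and 0.908 ± 0.243 in EarlyGC1, higher in DZ than in LZ2 to LZ4 in 6 of 6 mice. EarlyGC1 had the lowest mean ratio of the 3 states against both DO chains in both sorts. Against H2-Oa, Activated/Memory (1.53 ± 0.0712) and LZ1 (1.59 ± 0.0878) overlapped EarlyGC1 in CD45.2+ cells. In CD45.1+ cells the LZ1 mean against H2-Oa, 1.54 ± 0.448 (n = 4), was below that of EarlyGC1. Against H2-Ob the means of Activated/Memory, EarlyGC2 and LZ1 lay above EarlyGC1 in both sorts.

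Ciita stood at 396, 435 and 415 CPM in EarlyGC1, 358, 369 and 311 CPM in LZ2 to LZ4, 202, 163 and 159 CPM in DZ1 and 49.7, 59.5 and 29.3 CPM in PC/PB of CD45.2+ cells. EarlyGC1 lay above LZ2 to LZ4 without overlap, LZ1 overlapped it, and the Activated, EarlyGC2, DZ and plasma cell states lay below it without overlap. The CD45.1+ cells held 451, 452 and 331 CPM in EarlyGC1, 367, 318 and 362 CPM in LZ2 to LZ4 and 1.89, 2.81 and 2.11 CPM in PC/PB. EarlyGC2 and Activated/Memory cells, whose class II chains stood close to LZ2 to LZ4, held 65.9% ± 12.1 and 72.0% ± 2.19 of its Ciita level in CD45.2+ cells.

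EarlyGC1 lay above LZ2 to LZ4 without overlap for H2-Oa, H2-Ob and Ciita in CD45.2+ cells and for H2-Aa, H2-Eb1 and H2-Ob in CD45.1+ cells, 3 of 10 genes in each sort. Over all genes of at least 50 CPM, 21% and 16.2% did so, a share near that of the members. H2-Ob was the gene above in both sorts, at 167% ± 51.2 and 169% ± 28.8 of LZ2 to LZ4. Cd74 stood at 88.0% ± 6.38 and H2-Aa at 128% ± 10.9 in CD45.2+ cells. When the 10 genes were allowed into clustering, the EarlyGC1 cluster grew from 819 to 1263 cells, and Ciita in CD45.2+ EarlyGC1 cells moved from above to level with LZ2 to LZ4 (log2 ratio -0.032).

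Plasma cells and plasmablasts (PC/PB) held the lowest class II levels of the large B cell states, and the genes differed in how low they stood. In CD45.2+ PC/PB the 3 class II chains and Cd74 kept 35.3% (H2-Eb1) to 52.4% (H2-Ab1) of their LZ2 to LZ4 level, whereas Ciita kept 13.1% ± 3.41, H2-DMb2 17.6% ± 6.02, H2-Oa 18.6% ± 4.21 and H2-DMa 19.7% ± 5.66. H2-DMb1 and H2-Ob kept 36.0% ± 5.96 and 35.7% ± 5.75, close to H2-Eb1. In CD45.1+ PC/PB the split was wider. H2-Ab1 kept 36.1% ± 17.1 and Cd74 32.0% ± 11.6, against 0.660% ± 0.197 for Ciita, 4.41% ± 2.37 for H2-DMb2, 4.63% ± 3.91 for H2-Oa and 7.75% ± 2.85 for H2-DMa. All 10 genes lay below LZ2 to LZ4 without overlap in both sorts, as did 73.8% and 70.4% of all genes of at least 50 CPM. Immunoglobulin genes took 36.6 to 40.4% of PC/PB UMIs in CD45.2+ and 38.7 to 41.3% in CD45.1+ cells, which lowers the CPM of all other genes. With immunoglobulin genes left out of the total, the log2 ratio of the summed 10 genes went from -1.25 to -0.61 in CD45.2+ and from -1.91 to -1.20 in CD45.1+ cells.

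As a share of RNA, the summed genes stood lower still in dividing plasma cells. CyclingPC/PB kept 23.1% ± 6.75 of the summed LZ2 to LZ4 level in CD45.2+ and 10.4% ± 0.245 in CD45.1+ cells. These cells held more RNA, with a median of 15247.5 UMIs against 7845 in PC/PB of the CD45.2 library. In the CD45.1 library the medians were 15448 and 9333 UMIs. A lower count per cell than in PC/PB is therefore not shown. Wt mouse 3 was the lowest of the 3 in PC/PB of both sorts, with H2-Aa at 1451, 1685 and 557 CPM in CD45.2+ and 1165, 1171 and 234 CPM in CD45.1+ cells. This mouse sets most of the PC/PB spread, and fewer cells with class II RNA and less RNA per cell cannot be told apart in these sums.

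T cells, which do not express class II genes in mice, gave the background level. In the CD45.2 library the 63 T cells held 6683 CPM of the 10 genes (95% exact Poisson interval 6364 to 7014, counting error only), which was 23.8% of LZ2 to LZ4. The 44 T cells of the CD45.1 library held 929.9 CPM (779.7 to 1101), or 3.20%. Median depth was 3337 and 2798.5 UMIs in these T cells against 7845 and 9333 in PC/PB. In CD45.2+ PC/PB, pooled over the wt mice, H2-Aa (1281 against 739 CPM in T cells), H2-Ab1 (2255 against 1113), H2-Eb1 (1577 against 1121) and Cd74 (6453 against 2909) stood above the T cell level. The other 6 genes did not, including Ciita (47.7 against 93.4) and H2-DMa (129 against 187), so that by CPM their RNA in CD45.2+ PC/PB was not told apart from the T cell level. Counted per cell these 6 genes were higher in the deeper PC/PB cells, with 1.07 against 0.730 UMIs for H2-DMa and 0.398 against 0.365 for Ciita, and how much of their RNA was free RNA was not tested.

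In CD45.1+ PC/PB the same 4 genes stood above T cells, H2-Aa at 19.1% against 3.02%, H2-Ab1 at 28.2% against 2.51%, H2-Eb1 at 18.5% against 1.52% and Cd74 at 26.5% against 3.56% of LZ2 to LZ4. Ciita had 9 counts in 434 PC/PB cells, 2.27 CPM (95% exact Poisson interval 1.04 to 4.31), and none in the T cells, which allows up to 20.7 CPM there (3 counts). Class II chain and invariant chain RNA thus stood above the T cell level in plasma cells whose Ciita RNA stood at 0.656% of LZ2 to LZ4.

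Shares of cells with a Ciita UMI were compared at equal depth. The intervals below pool the cells of all mice used, so they measure the sampling of cells only and not the variation between mice. Expected over cells thinned to 2000 UMIs, the share was 51.1% (95% exact binomial interval 46.9 to 55.6%) in LZ2 to LZ4, 8.74% (95% exact binomial interval 7.31 to 10.4%) in PC/PB and 11.4% (95% exact binomial interval 4.19 to 22.6%) in T cells of the CD45.2 library. In the CD45.1 library it was 50.4% (95% exact binomial interval 47.1 to 53.6%), 0.624% (95% exact binomial interval 0.193 to 1.80%) and 0% (upper bound 8.81%). Unthinned, these shares were 84.0%, 26.0% and 22.2%, and 68.7%, 2.28% and 0%. In the CD45.2 library the PC/PB share was below that of T cells after thinning, with overlapping intervals, and above it without thinning. Cd74 had a UMI in 99.5% of CD45.2+ and 97.9% of CD45.1+ PC/PB cells after thinning, against 90.9% and 15.9% of T cells.

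**Figure D2:**
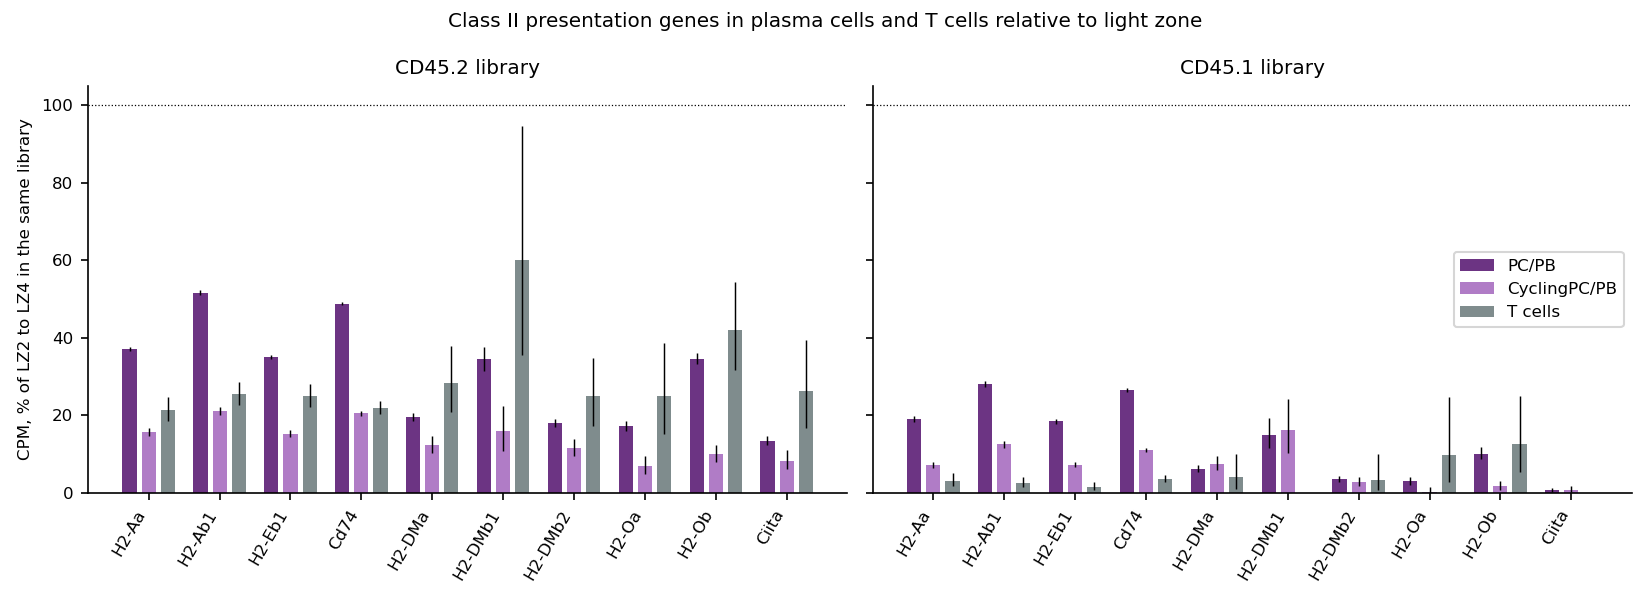
Level of each gene in PC/PB, CyclingPC/PB and T cells as percent of LZ2 to LZ4 in the same library, pooled over mice, with bars from zero and 95% Poisson intervals (counting error only) as error bars. T cells of the CD45.2 library hold 23.8% of the summed LZ2 to LZ4 level and those of the CD45.1 library 3.20%, and Ciita in CD45.1+ PC/PB is at 0.656%.

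To ask which genes follow the class II chains across cells, log2 CPM of each gene was correlated with the mean of H2-Aa, H2-Ab1, H2-Eb1 and Cd74 over 103 sums of 1 mouse, sort and state (58 CD45.1+, 45 CD45.2+). Among 2630 genes with a mean of at least 50 CPM, the closest outside the set were Lat2 (Pearson r = 0.955), an adaptor of B cell receptor signalling, Cd79b (0.953) and Cd79a (0.936), the signalling chains of that receptor, Ctsh (0.952), an endosomal protease, and Syk (0.919), a tyrosine kinase. The other class II genes had r from 0.786 (H2-DMb1) to 0.859 (H2-DMa), with Ciita at 0.837. Sums of 1 mouse share their library and depth, and T and plasma cells set the low end, so these values are a description.

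Loss of DOCK8 was tested first over all LZ and DZ cells of the CD45.2 sort, with UMIs summed per mouse (edgeR quasi-likelihood test, Benjamini-Hochberg adjustment over all genes tested). None of the 10 genes passed the threshold of 0.05, where 0.0741% of all 9451 genes did (7 genes, 572 at an unadjusted p under 0.05). Of the 10 members 0 had an unadjusted p under 0.05, and DESeq2 called 7 genes and none of the 10. H2-Aa stood at 2028, 2468 and 1901 CPM in wt mice and 2712, 1784 and 1722 CPM in cpm mice. Cd74 stood at 7793, 9553 and 7471 and 9530.4, 7304 and 7413 CPM, and Ciita at 192, 237 and 179.6 and 255, 199 and 198 CPM. The groups overlapped for all 10 genes, and cpm mouse 1 was the highest cpm mouse for each of these 3. The test rested on 35, 18 and 40 cells of the cpm mice and 521, 897 and 558 of the wt mice. DZ cells made up 40, 61.1 and 50% of these cells in cpm and 70.6, 47.8 and 71.9% in wt mice. How far composition entered the levels was not tested. H2-Oa had the lowest fold change, log2 -0.39 (SE 0.208, adjusted p = 0.854) by edgeR, and H2-DMb2 the highest, 0.073. The median log2 fold change was -0.11 over the 10 genes and -0.018 over all genes. In simulated counts of this size, the changed genes were drawn at random from all genes tested. A fold change of 1.5 was called in 22.9% and of 2 in 38.8% of them. Most differences of this size in genes so drawn would go uncalled, and the rate for the 10 genes alone was not measured.

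Of the single states, EarlyGC1 alone had at least 10 CD45.2+ cells in all 6 mice, with 295, 337 and 36 cells in wt and 13, 11 and 22 in cpm mice. H2-Eb1 was lower in the cpm mice, at 4057, 4424 and 4055 CPM against 5286, 5166 and 4514 CPM in wt mice, and the groups did not overlap. On the log2 scale the difference was -0.34 (SE 0.082, adjusted p = 0.0274) in the edgeR quasi-likelihood test, which made it 1 of 10 members called, where 0.981% of all 2344 genes were (23 genes, 241 unadjusted) and 0.597% were called lower. The call was lost without wt mouse 1 (adjusted p = 0.298), wt mouse 2 (0.0858), cpm mouse 1 (0.171) or cpm mouse 3 (0.262) by edgeR. With the 10 genes kept for clustering the adjusted p was 0.0689, at clustering resolution 1.2 it was 0.138 and with the 3-fold hashtag rule 0.138, with the same direction. H2-Eb1 has no surface partner in this strain.

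In this EarlyGC1 comparison 5 of the 10 members had an unadjusted p under 0.05, where 241 of all 2344 genes did. The median log2 fold change was -0.16 over the 10 genes and 0.0092 over all genes. In simulated counts of this comparison a fold change of 1.5 was called in 23.8% of changed genes, drawn at random from all genes tested. Most differences of this size or smaller in genes so drawn would go uncalled. The I-A chains did not pass the test in EarlyGC1. H2-Aa stood at 4352, 4313 and 3669 CPM in wt and 3821, 3655 and 3515 CPM in cpm mice, with log2 -0.25 (SE 0.085, adjusted p = 0.205) by edgeR. H2-Ab1 had -0.20 (SE 0.084, adjusted p = 0.366) and Cd74 -0.094 (SE 0.077, adjusted p = 0.740) in the same edgeR test. H2-Ob did not overlap between groups, at 812, 721 and 855 CPM in wt and 576, 690.3 and 653 CPM in cpm mice, but missed the threshold with -0.35 (SE 0.140, adjusted p = 0.328) by edgeR. The share of all genes without overlap is not given for EarlyGC1, so the lack of overlap is not read as a result about the members. H2-Oa, the partner of H2-Ob, had the largest fold change, -0.64 (SE 0.188, adjusted p = 0.0984) by edgeR, with 500.4, 452 and 376 CPM in wt and 209, 392 and 331 CPM in cpm mice, which overlapped. H2-Oa passed the edgeR threshold when no filter on low counts was used (adjusted p = 0.00525), under the 3-fold hashtag rule (0.00102) and without wt mouse 3 (0.0102). Wt mouse 3, which gave 36 of the wt cells, was the lowest wt mouse for all 3 class II chains. Without it 4 of the 10 genes were called. The share of all genes called without this mouse is not given here, so the count is not read as a result about the members.

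**Figure D3:**
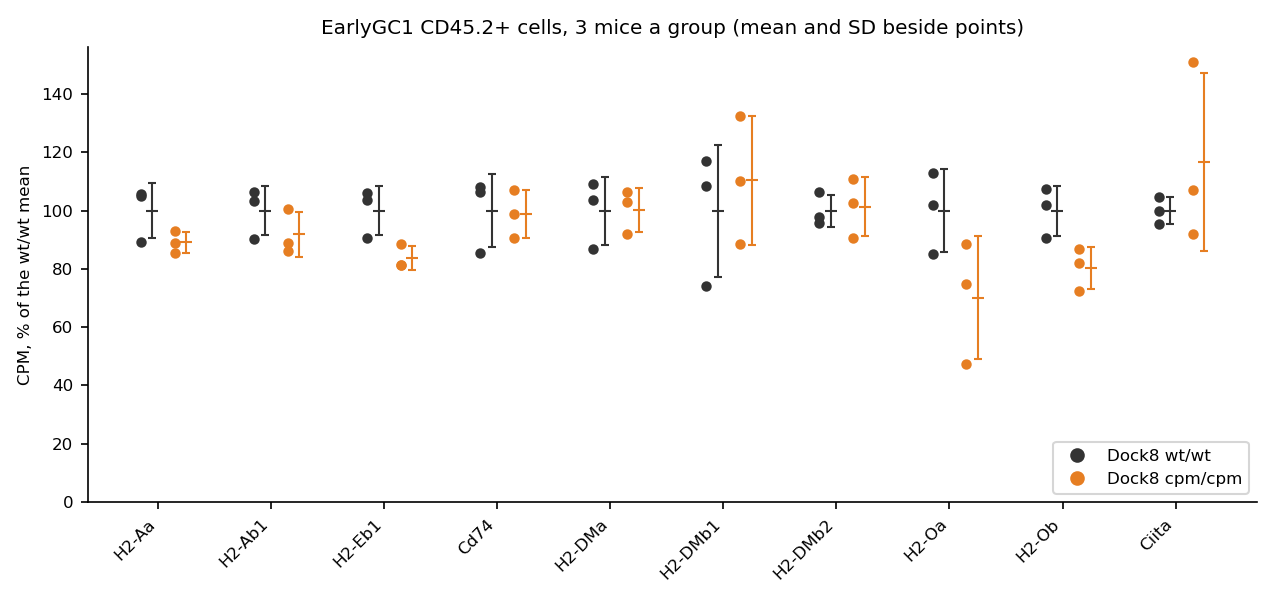
Level of each gene in CD45.2+ EarlyGC1 cells as percent of the Dock8 wt/wt mean of CPM, axis from zero. Points are 3 mice per group with the mean and SD beside them. H2-Eb1 and H2-Ob do not overlap between groups, and H2-Eb1 alone passed the test across all genes. The share of all genes without overlap is not given for this comparison.

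The pathway list outside the set held 43 genes of the files, among them promoter factors, regulators of Ciita, endosomal proteases, class II ubiquitin ligases and class I genes. In EarlyGC1, 9 of all 2344 genes were higher and 14 lower in cpm mice. Of the list 29 were tested, 1 was higher and none lower. That gene was Cd83, which stabilises surface class II by opposing its ubiquitination by MARCH1, at 163, 189 and 195 CPM in wt and 314, 392 and 278 CPM in cpm mice (log2 0.77 (SE 0.194, adjusted p = 0.0316), edgeR). The groups did not overlap. Over the LZ and DZ cells 42 of the list were tested and none was called, where 7 of all 9451 genes were.

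CD45.1+ cells were Dock8 wt/wt in both groups of recipients and served as the measure of what differs between recipients. Over LZ and DZ cells none of the 10 genes was called between cpm and wt recipients, and 0.0122% of 8183 genes were (1 gene by edgeR and 1 by DESeq2, 350 unadjusted), with 0 members at an unadjusted p under 0.05. The log2 fold changes ran from 0.049 to 0.19, and the groups overlapped for each gene, for example H2-Aa with 2268, 2713 and 2159.7 CPM in wt and 2656, 2202 and 2789 CPM in cpm recipients. Within the 7 CD45.1+ states with enough cells, Activated/Memory (0.264% of all genes called), DZ1 (0.0952%), DZ2 (0.0217%), DZ3/DZ4 (0.0397%), EarlyGC2 (0%), LZ2 to LZ4 (0.0167%) and PC/PB (0.0556%), none of the members tested was called by edgeR or DESeq2. At an unadjusted p under 0.05, 3 of 9 members tested were lower in DZ3/DZ4 (H2-Aa, H2-Eb1 and Cd74), where 125 of 2519 genes passed in either direction. In LZ2 to LZ4 2 of 10 members were higher (305 of 5999 genes passed). DZ1 (255 of 4203 genes), EarlyGC2 (61 of 1882) and Activated/Memory (170 of 2650) each had 1 of 10 members higher. PC/PB (7 members tested, 201 of 3600 genes) and DZ2 (10 members tested, 229 of 4605) had 0.

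Whether the CD45.2+ cells differed between genotypes by more than the CD45.1+ cells beside them was tested by an interaction with mouse as block. By edgeR none of the 10 genes was called, and 0.0223% of 8954 genes were (2 genes, 505 unadjusted). DESeq2 called none of the 10 and 1 gene in all, and 6 members had an unadjusted p under 0.05. All 10 interaction terms were below zero, from -0.60 (SE 0.185, adjusted p = 0.575) for H2-Oa to -0.021 for H2-DMb2, with a median of -0.21 against -0.011 over all genes. H2-Ab1 had -0.24 (SE 0.080, adjusted p = 0.670) and Cd74 -0.19 (SE 0.072, adjusted p = 0.760) in this edgeR test. Without cpm mouse 1, 4 of the 10 were called, and 3 with no filter on low counts. The number of genes called in all also varied with such settings, as given with the processing below. These counts are therefore not read as a result about the members.

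The sorts were compared within the 3 wt mice, in which CD45.2+ BCL2.Tg and CD45.1+ cells were both Dock8 wt/wt, with mouse as block. Over LZ and DZ cells 7 of the 10 genes were lower in CD45.2+ cells by edgeR, where 6.58% of 9893 genes were lower and 14.1% called in either direction. Cd74 stood at 7793, 9553 and 7471 CPM in CD45.2+ and 10846, 12245 and 10136 CPM in CD45.1+ cells, log2 -0.42 (SE 0.023, adjusted p = 2.1e-18) by edgeR, lower in 3 of 3 mice. H2-DMa stood at 377, 464 and 356 against 498, 586 and 444 CPM (-0.34 (SE 0.048, adjusted p = 4.3e-07), edgeR), also lower in 3 of 3. H2-DMb2 (-0.28), H2-Ab1 (-0.23), Ciita (-0.23), H2-Aa (-0.16) and H2-Eb1 (-0.15) were the other 5 called, whereas H2-Oa (-0.16), H2-DMb1 (0.15) and H2-Ob (-0.0037) were not.

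Cell composition moved with this difference. LZ2 to LZ4 cells, in which all 10 genes stood above the DZ level, made up 11.3, 40.0 and 16.1% of the LZ and DZ cells of the CD45.2 sort and 46.4, 67.5 and 42.5% of those of the CD45.1 sort in the 3 wt mice. With all B cells except PC/PB summed, 2 of the 10 were called, and Ciita (0.041), H2-Aa (0.087) and H2-Eb1 (0.080) turned direction. Without the block for mouse only Cd74 was called (edgeR adjusted p = 0.00226).

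Within single states Cd74 was called lower in CD45.2+ cells in LZ2 to LZ4, DZ1 and DZ2. In LZ2 to LZ4, where 3.88% of genes were called and 1.28% called lower, it stood at 12469.9, 14070.1 and 11006 against 14889, 16400.1 and 13237 CPM (log2 -0.25 (SE 0.038, adjusted p = 3.0e-05), edgeR). In DZ1 (2.79% of genes called, 1.05% lower) its fold change was -0.26 (SE 0.050, adjusted p = 6.0e-04), and in DZ2 (3.57% called, 1.5% lower) it was -0.27 (SE 0.056, adjusted p = 9.4e-04), both by edgeR. DZ2 also gave the only other class II gene called lower, H2-Aa with -0.21 (SE 0.063, adjusted p = 0.0485) by edgeR, also lost with DESeq2 (0.0713). By edgeR and DESeq2 none of the 10 was called in DZ3/DZ4 (1.11% of genes) or EarlyGC1 (2.14%), and Cd74 was the 1 member with an unadjusted p under 0.05 in each. H2-Ob was higher in CD45.2+ cells in Activated/Memory (3.42% of genes called, 1.45% higher), at 609, 601 and 554 against 478, 477 and 437 CPM (0.27 (SE 0.076, adjusted p = 0.0163), edgeR), a call lost with DESeq2 (adjusted p = 0.0778). It was also higher in EarlyGC2 (5.09% called, 1.98% higher), at 647, 646 and 439 against 441, 313 and 314 CPM (0.59 (SE 0.139, adjusted p = 0.00188), edgeR).

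In plasma cells the class II genes were higher in the CD45.2 sort. In PC/PB 9 of the 10 genes were higher in CD45.2+ cells by edgeR, where 10.7% of all 8841 genes were higher and 21.6% called in either direction. Ciita stood at 49.7, 59.5 and 29.3 CPM in CD45.2+ and 1.89, 2.81 and 2.11 CPM (1, 3 and 5 counts) in CD45.1+ cells, a fitted log2 fold change of 3.91 (SE 0.305, adjusted p = 4.0e-14) by edgeR. H2-Oa stood at 57.9, 70.2 and 33.1 against 22.7, 14.1 and 2.53 CPM (2.21 (SE 0.240, adjusted p = 6.6e-10), edgeR). DO and DM genes followed, with H2-DMb2 at 1.71 (SE 0.164, adjusted p = 2.3e-11), H2-Ob at 1.57 (SE 0.131, adjusted p = 3.4e-13), H2-DMb1 at 1.05 (SE 0.196, adjusted p = 4.5e-05) and H2-DMa at 1.03 (SE 0.128, adjusted p = 1.4e-08) in the same edgeR test. The groups did not overlap for these 6 genes, and the share of all genes without overlap is not given for this comparison.

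The class II chains and Cd74, which were the genes above the CPM of T cells in CD45.2+ plasma cells, had the smallest fold changes. H2-Aa stood at 1451, 1685 and 557 against 1165, 1171 and 234 CPM, higher in 3 of 3 mice with overlapping groups (0.48 (SE 0.113, adjusted p = 0.00108), edgeR). H2-Eb1 had 0.50 (SE 0.10, adjusted p = 1.4e-04), H2-Ab1 0.30 (SE 0.101, adjusted p = 0.0281) and Cd74, which was not called, 0.21 (SE 0.095, adjusted p = 0.107) by edgeR. Without wt mouse 3, H2-Aa (adjusted p = 0.299) and H2-Ab1 (0.651) were not called by edgeR, nor were they by DESeq2. The 6 genes with the larger fold changes stood at or below the CPM of T cells in the CD45.2 library, and T cells differed between the libraries in the same direction (Ciita at 93.4 CPM in the CD45.2 library and at 0 counts in the CD45.1 library). Immunoglobulin genes took 36.6 to 40.4% of PC/PB and 1.84 to 2.73% of T cell UMIs in the CD45.2 library, which lowers PC/PB CPM. Counted per cell the 6 genes were higher in PC/PB. What part free RNA had in the difference between sorts was not tested.

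B cell identity RNA moved with the plasma cell difference. At least 1 UMI of Ms4a1, Pax5, Cd22, Blk or Fcrla was found in 95.7% of 1351 CD45.2+ and 75.8% of 434 CD45.1+ PC/PB cells of the wt mice. Among the 58 and 105 cells without one, 5 of the 10 genes could be tested and 2 were called by edgeR, H2-Ob with a log2 fold change of 1.90 and H2-Aa with 0.72 (adjusted p = 0.0251), where 64 of 1569 genes were. The PC/PB clusters were also unequally filled, with 72.7% of CD45.1+ and 48.2% of CD45.2+ PC/PB cells of all 6 mice in the largest of them. The part of these in the difference was not tested beyond these values.

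CyclingPC/PB cells showed the same direction in fewer cells, 10 to 61 per mouse and sort. Of 8 genes tested 7 were higher in CD45.2+ cells by edgeR, where 2.75% of 3927 genes were higher and 4% called in all. DESeq2 called 4 of them, the 3 class II chains and Cd74. H2-Aa stood at 854, 661 and 426 CPM in CD45.2+ and 308, 280.1 and 197 CPM in CD45.1+ cells (1.22 (SE 0.153, adjusted p = 1.5e-08), edgeR), and the groups did not overlap. Cd74, which was not called in PC/PB, stood at 4233, 3128 and 2266 against 1735, 1840.0 and 1572 CPM (0.82 (SE 0.127, adjusted p = 3.5e-06), edgeR). H2-DMa was the gene tested and not called (0.54 (SE 0.249, adjusted p = 0.249), edgeR), and H2-DMb1 and H2-Oa did not pass the filter on low counts.

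**Figure D4:**
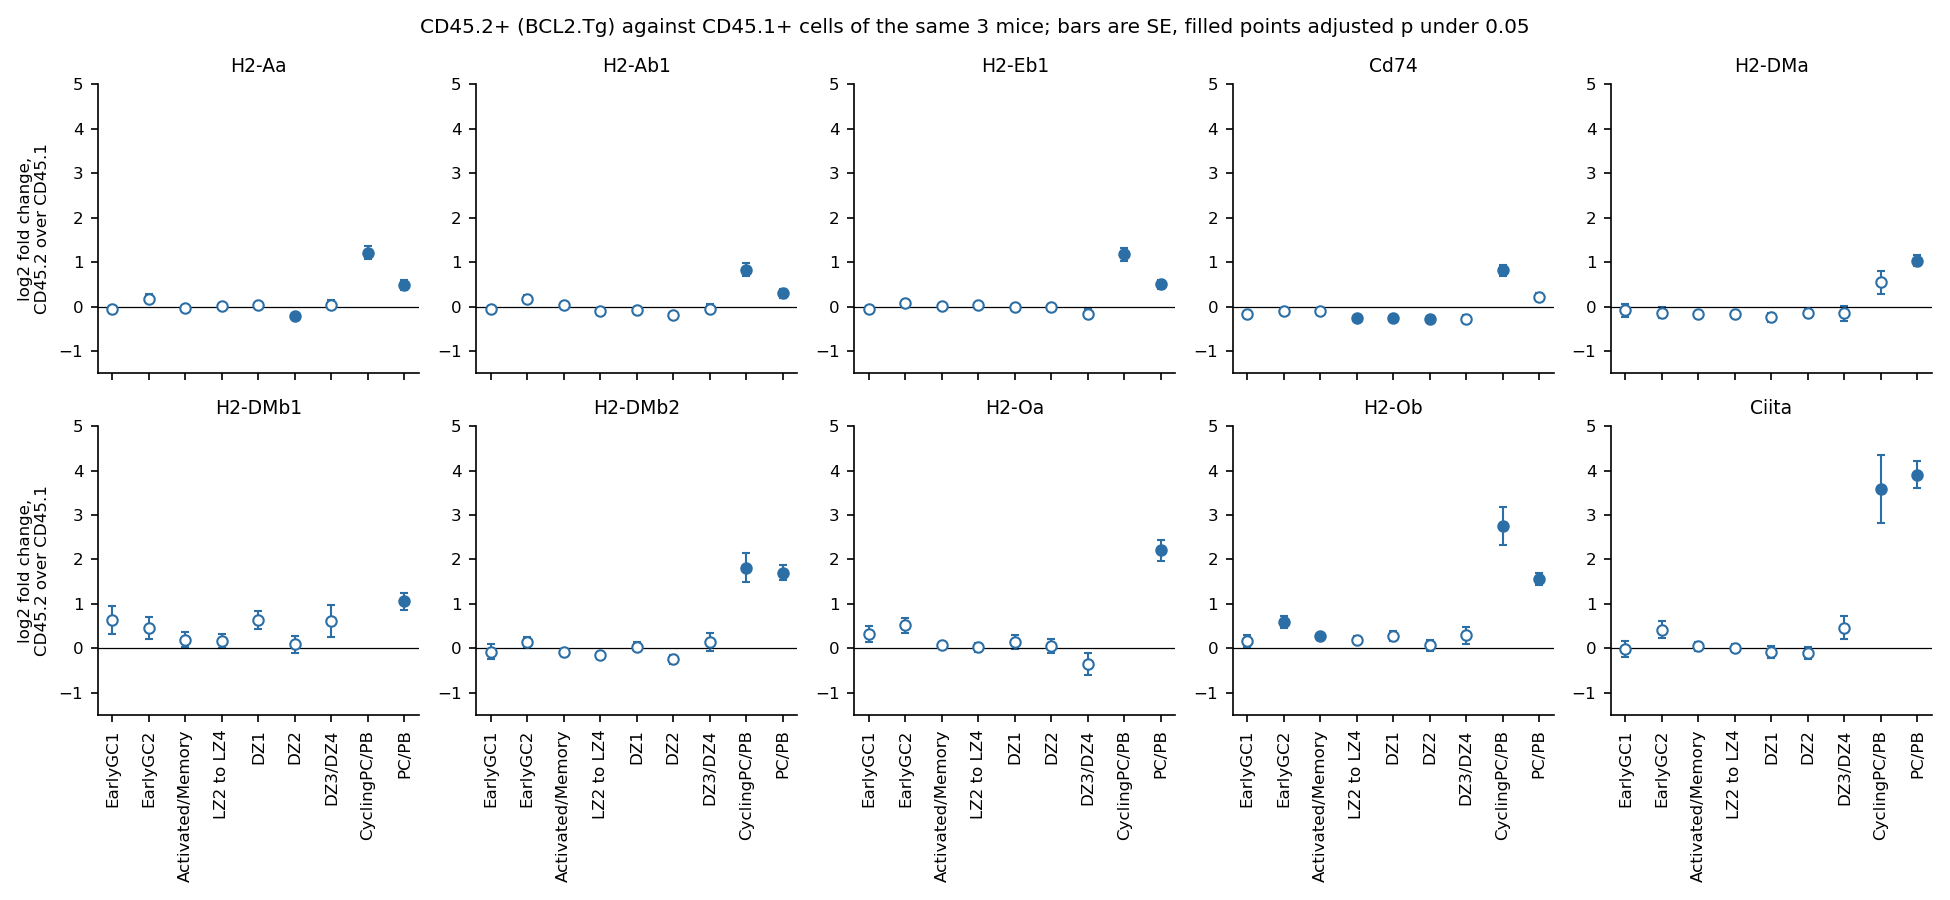
Log2 fold change of CD45.2+ over CD45.1+ cells of the 3 wt mice for each gene and state, with SE as bars and filled points for an adjusted p under 0.05 (edgeR). Points of the GC states lie within 1 unit of zero, and Ciita reaches 3.91 in PC/PB.

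Genes of the pathway list, regulators of Ciita among them, also differed between the sorts in PC/PB. Of 42 genes of the list tested, 7 were higher and 10 lower in CD45.2+ PC/PB by edgeR. Of all 8841 genes 950 were higher and 957 lower, so the counts are not read as a result about the list. The 5 with the largest fold change were Pax5 (log2 4.05), the B cell identity factor, Spib (3.85), an ETS factor, Cd83 (3.08), March1 (2.89), the ligase that ubiquitinates class II, and Irf8 (2.03). Pax5 stood at 42.1, 47.7 and 28.1 against 3.78, 3.75 and 0.422 CPM, and like Ciita it was below the CPM of T cells in its library (40.2 CPM pooled in PC/PB and 85.3 CPM in T cells). Over LZ and DZ cells 6 of 42 were higher and 14 lower in CD45.2+ cells, where 739 and 651 of all 9893 genes were. The largest changes in the list were Prdm1 (1.56 (SE 0.548, adjusted p = 0.0498), edgeR), Ctsl (1.15), an endosomal protease, Irf4 (0.72), Cd83 (-0.67) and the immunoproteasome subunit Psmb8 (-0.43). In LZ2 to LZ4 alone, 40 were tested, and B2m (0.39), the class I light chain, Psmb8 (-0.34) and Cd83 (-0.33) were called. Of all 6422 genes there 249 were called.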

How the data were processed

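The deposited files hold whole-number UMI counts per gene and barcode for the CD45.1 and CD45.2 mRNA libraries and hashtag counts per barcode, which the authors made without normalization. The submitters' processing notes name Cell Ranger 5.0.1, Seurat 4.0 and mm10. The group and mouse of each hashtag came from the authors' hashtag table. Hashtag counts were CLR-normalized and demultiplexed with HTODemux (quantile 0.99, Seurat 5.3.0, Matrix 1.6.5, data.table version 1.17.8, R 4.3.3). Singlets passed the cell filters if they had 100 to 5500 genes and less than 10% of UMIs from mitochondrial genes. Hashtag doublets were removed and no further doublet caller was run, so that doublets within a mouse remain. Libraries were merged, normalized with SCTransform (sctransform 0.4.2, 3000 variable genes, the 10 genes left out) and clustered on 30 principal components at resolution 0.9. A cluster took the name of the study's marker list that shared most genes with its 50 leading genes (at least 3).

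UMIs were summed per mouse and state (at least 10 cells) and compared by edgeR 4.0.16 (quasi-likelihood test, TMM, filterByExpr, Benjamini-Hochberg adjustment at 0.05). DESeq2 1.42.0 was an alternative. Shares of cells with a UMI were computed as the expectation over all draws of 2000 UMIs. Cells of the sorts came from the same mice, and mouse was a block there. Deviations from the group means of same-numbered samples correlated at 0.124, 0.236 and 0.179. The members and all lists were chosen with earlier results of these data known. All 10 members were named in every comparison, and of the pathway list those called, up to 5 by fold change. The tests were checked on simulated counts, where a 2-fold change was recovered in 38.8% (LZ and DZ, genotype), 80.9% (EarlyGC1, genotype), 87.8% (LZ and DZ, sort) and 66.7% (PC/PB, sort) of changed genes. A fold change of 1.5 was recovered in 22.9, 23.8, 55.1 and 37.5% of changed genes, in the same order. The changed genes were drawn at random from all genes tested.

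The alternatives were DESeq2, no filter on low counts, no block or a block for the other design, a hashtag rule asking for 3 times the next hashtag, a filter at 5% mitochondrial counts and 500 genes, resolution 1.2, members kept for clustering, all B cells except PC/PB, at least 20 cells, unthinned cells, and each mouse left out. CPM without immunoglobulin genes, UMIs per cell, and PC/PB cells without B cell identity UMIs were added after seeing the data.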

Additional observations from a re-analysis of the deposited data

Results flagged for a closer look

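Differences between the sorts ran in opposite directions in LZ2 to LZ4 and in PC/PB cells for 4 genes, in every one of the 3 wt mice. The log2 fold change of CD45.2+ over CD45.1+ cells was -0.11 in LZ2 to LZ4 and 0.30 in PC/PB for H2-Ab1. For Cd74 it was -0.25 and 0.21. H2-DMa gave -0.17 and 1.03, and H2-DMb2 -0.16 and 1.71. The difference between the states was not tested, and no gene was called by edgeR in both. Cd74 was called in LZ2 to LZ4 and not in PC/PB. H2-Ab1, H2-DMa and H2-DMb2 were called in PC/PB and not in LZ2 to LZ4. The share of all genes with such a reversal is not given, so the count is not read as a result about the members. T cells, which entered none of the tests, held 6683 CPM of the 10 genes in the CD45.2 library and 929.9 CPM in the CD45.1 library, above the limit that a count of 0 allows (12.2 and 20.7 CPM).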

How the results depend on the processing

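For the genotype over LZ and DZ cells, the 7 genes called became 41 with no filter on low counts, 21 over all B cells except PC/PB, and 4 to 24 with a mouse left out, and none of the 10 members was called under any alternative run. In CD45.1+ cells the 1 gene became 6 with no filter, 0 under the 3-fold hashtag rule, the stricter cell filter and all B cells, and 0 to 3 with a mouse left out. The 2 interaction genes became 1 with DESeq2, 23 with no filter and 1 to 15 with a mouse left out, and the 0 members became 3 with no filter and 0 to 4 with a mouse left out (4 without cpm replicate 1). Within states, the 1 member called between genotypes became 3 with no filter, 2 under the 3-fold hashtag rule, 0 with members kept for clustering or at resolution 1.2, and 0 to 4 with a mouse left out, and the 0 pairs of member and state in CD45.1+ cells became 2 under the 3-fold rule and 0 to 2 with a mouse left out (2 without wt replicate 2). Between sorts, the 1390 genes called over LZ and DZ cells became 465 with DESeq2, 547 with no replicate block, 372 over all B cells and 898 to 1206 with a mouse left out (lowest without wt replicate 3). The 7 members became 1 without the block for mouse and 2 over all B cells, where Ciita (0.041), H2-Aa (0.087) and H2-Eb1 (0.080) turned direction. The 22 pairs of member and state called between sorts became 14 with at least 20 cells, 16 without the block, and 14 to 28 with a mouse left out (lowest without wt replicate 3). For single states the share of all genes called in each setting is not given, so these counts are not read as a result about the members. Apart from the fewer cells, genes or samples in these settings, the cause was not tested.

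Per UMIs per cell the DZ to LZ2 to LZ4 log2 ratio of the summed genes turned from -0.85 to 0.067 in CD45.2+ and from -0.79 to 0.19 in CD45.1+ cells, as did H2-Ab1 (0.16 and 0.25) and, in CD45.1+ cells, H2-DMa (0.12). For PC/PB it moved to -0.61 without immunoglobulin genes in CD45.2+ and to -0.70 per UMIs per cell in CD45.1+ cells. The EarlyGC1 ratio of the summed genes in CD45.2+ cells moved to -0.052 under the 3-fold hashtag rule and -0.11 per UMIs per cell, and that of Ciita turned to -0.032 with members kept for clustering and -0.017 at resolution 1.2. Shares of cells with a Ciita UMI in LZ2 to LZ4 and PC/PB moved without thinning to 84.0% and 26.0% in CD45.2+ and 68.7% and 2.28% in CD45.1+ cells. UMIs per cell and CPM without immunoglobulin genes were chosen after seeing the data. Depth limits the CD45.2+ cells of cpm mice most, of which the smallest mouse gave 44 cells, and with at least 20 cells per mouse the EarlyGC1 comparison between genotypes could not be fitted.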

Other observations

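EarlyGC1 membership depended on the genes described. With the 10 genes kept for clustering the cluster held 1263 cells against 819 without them, 751 of them shared, while 378 of the added cells lay in Activated/Memory and 123 in EarlyGC2 when the genes were left out.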
